A study of Rattus norvegicus with 22 samples.

Results

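Sulf1 and 9 further genes that build, edit or carry heparan sulfate were followed in the nucleus accumbens (NAc) of 22 rats. The 10 genes were found by exact symbol among the 17310 genes listed in the count files, and all 10 were listed. Sulf1 was chosen because its count was lower in EtOH-drinking rats of experiment 1, so its values in that experiment are given as a description, without a test. The other 9 genes were chosen for their place in the same pathway, with earlier results of these data known. Experiment 2 played no part in the choice of Sulf1.

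Heparan sulfate is a long sugar chain that is attached to core proteins on the cell surface and in the extracellular matrix. Ext1 and Ext2 polymerize the chain, Ndst1 replaces acetyl groups on it with sulfate, and Hs6st1 adds sulfate at the 6-O position. After the chain has reached the cell surface, Sulf1 and Sulf2 remove part of these 6-O-sulfates, which alters the binding of growth factors and morphogens such as FGF and Wnt. The core proteins followed here are the GPI-anchored glypican Gpc1 and the transmembrane syndecans Sdc2, Sdc3 and Sdc4.

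All samples were NAc tissue from male Wistar rats, an outbred strain, whose age the paper's methods do not give. In experiment 1, 5 rats could drink 6 v/v % EtOH or water freely during 8 weeks, and 5 rats drank water only. In experiment 2, all 12 rats were offered 6% EtOH beside water during the first 4 and the last 2 weeks. In the 3 weeks between, 6 rats were given EtOH by gavage 2 times a day, each dose being 2.5 g/kg of a 30 v/v % solution, and 6 rats were given water. No group of experiment 2 went without EtOH, so its comparison concerns the added dose and not EtOH as such. RNA came from the whole dissected NAc, in which fewer cells of a type and less RNA per cell cannot be told apart. All 10 striatal projection neuron markers, such as the dopamine receptor genes Drd1 and Drd2, were among the tested genes in both experiments, with a summed level of 2965 to 5767 CPM (reads scaled to a common library total) in experiment 1 and 4564 to 8830 CPM in experiment 2.

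Reads assigned to genes numbered 2962291 to 5247386 per library in experiment 1 and 6713617 to 8765472 in experiment 2. The members were covered by 67 (Sulf1) to 1406 (Sdc3) reads per library in experiment 1 and by 62 (Gpc1) to 1673 (Sdc3) in experiment 2. In experiment 2, 4 libraries are said to stand apart, namely replicates 1 and 5 of the water gavage group and replicates 1 and 2 of the EtOH gavage group. They are defined by a negative value on the first principal component, which held 74% of the variance. They lay at -86.5 to -17.9 on it and the other 8 at 4.04 to 49.9, and no gap between the sets was required. Of their reads, 52.8% to 58% fell outside annotated genes, against 46.1% to 51.7% in the other 8. No such split was made among the libraries of experiment 1, and their share was 48.4% to 51.1%. The highest share was that of water replicate 1, which also lay farthest out on their first principal component (26% of the variance). On this component the water rats lay at -21.7 to 10.2 and the EtOH rats at -1.56 to 13.9.

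Normalized counts are reads brought to the average effective library size within an experiment, and each experiment was tested on its own with edgeR's quasi-likelihood test over 8655 genes. All 10 members passed the filter on low counts in both experiments. Fold changes are given as log2 of EtOH over water, or of EtOH gavage over water gavage, with the standard error (SE) of the fit.

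In experiment 1, the Sulf1 count was 230.6, 116.1, 227.6, 250.7 and 142.8 in the 5 water rats and 132.6, 93.0, 126.7, 121.1 and 74.2 in the 5 EtOH rats. The groups overlapped because water replicate 2, at 116.1, lay below 3 of the EtOH rats, while each of the other 4 water rats lay above every EtOH rat. The mean was 193.6 ± 59.9 (SD, n = 5) with water and 109.5 ± 24.9 (SD, n = 5) with EtOH, a log2 fold change of -0.81 (SE 0.21) or 0.57-fold. Of the 8655 genes tested, 18 had a larger log2 fold change in either direction. Sulf1 was chosen for this difference, so its place among all genes is no evidence for it. Among rats of the same group, Sulf1 was also one of the most variable genes, with a standard deviation of 0.42 in log2 CPM against a median of 0.16 over all genes tested.

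Marker lists of other cell types were also compared between the groups of experiment 1. The summed level of 5 neuroblast markers was 199 to 272 CPM with water and 275 to 381 CPM with EtOH, and that of 3 oligodendrocyte precursor markers was 313 to 349 and 361 to 420 CPM, so that neither list overlapped between the groups. For 4 ependymal markers it was 16.8 to 52.1 and 38.7 to 68.5 CPM, and for 4 endothelial markers 208 to 248 and 247 to 274 CPM. The 9 cortical glutamatergic neuron markers summed to 381 to 965 CPM with water and 436 to 909 CPM with EtOH. The 10 striatal projection neuron markers summed to 3320 to 5712 CPM with water (median 4450) and 2965 to 5767 CPM with EtOH (median 3657), and 9 of the 10 were lower with EtOH, with a median log2 fold change of -0.24. No marker of these 6 lists was at 0, and 3 of the 5 neuroblast markers passed the filter on low counts. The sums for astrocytes, oligodendrocytes, microglia, pericytes and fibroblasts, and choroid plexus overlapped between the groups. How often sums of other genes lack overlap was not counted. Dcx, Dlx1 and Cd24 of the neuroblast list and Pdgfra of the oligodendrocyte precursor list are among the top genes that the paper ranks for this same contrast, all higher with EtOH. The missing overlap of the neuroblast and oligodendrocyte precursor sums is therefore no independent result. Cux2 of the cortical list is also among those top genes, lower with EtOH. Of the 8 tested cortical markers, 6 were higher and 2 lower with EtOH. Both lower ones had an unadjusted P-value under 0.05 in edgeR's quasi-likelihood test. The part of the marker lists in the Sulf1 difference was not tested.

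In experiment 2, Sulf1 did not differ between the gavage groups beyond the spread of the rats. The Sulf1 count ranged from 140.6 over a median of 319.9 to 436.3 after water gavage, and from 283.8 over a median of 346.3 to 469.6 after EtOH gavage. Every EtOH gavage rat was within the range of the water gavage rats except replicates 1 and 3, which lay above it. The means were 315.6 ± 102 with water gavage (SD, n = 6) and 367.5 ± 75.5 with EtOH gavage (SD, n = 6), and the log2 fold change was 0.22 (SE 0.23, 95% interval -0.28 to 0.72) with an FDR of 0.683 in edgeR's quasi-likelihood test. The lowest count, 140.6, belonged to water gavage replicate 5, and the log2 fold change was 0.07 (SE 0.17) without this rat. Without the 4 libraries that stood apart it was 0.10 (SE 0.18), and within those 4 it was 0.51 (SE 0.40). Experiments 1 and 2 were not tested against each other, since their control groups were treated differently.

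**Figure D1:**
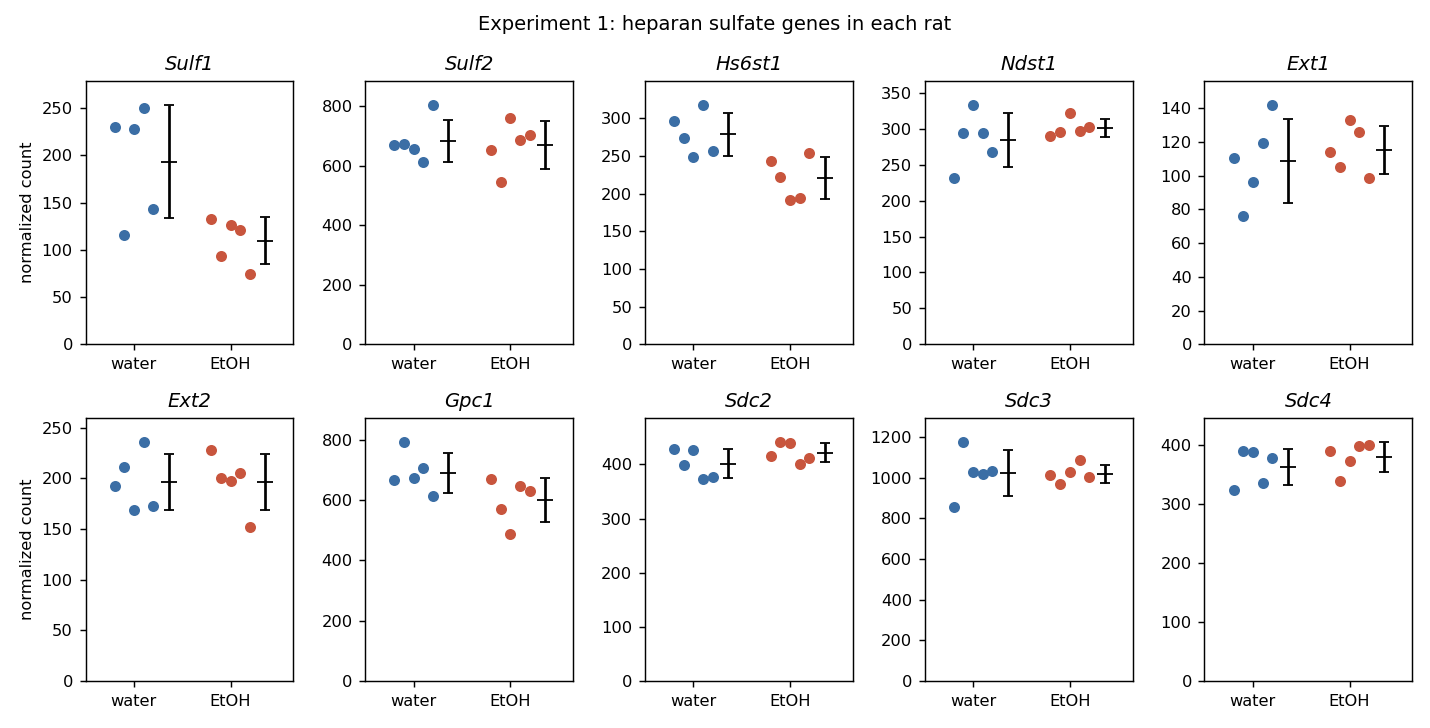
Normalized counts (y axis, from 0) of the 10 genes in each rat of experiment 1, with 5 water rats in blue and 5 EtOH rats in red; black bars show mean ± SD. The Sulf1 count was at most 132.6 with EtOH, a level that 4 of 5 water rats exceeded, while the groups overlapped for every gene.

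Sulf2, the other extracellular sulfatase of this pair, had no comparable difference in experiment 1. Its count ranged from 614 to 804 with water and from 544 to 762 with EtOH, with a log2 fold change of -0.03 (SE 0.09). In experiment 2 the Sulf2 count was 604.7 to 1245 after water gavage and 515.9 to 1188 after EtOH gavage, with a log2 fold change of -0.13 (SE 0.22, 95% interval -0.61 to 0.35, FDR 0.775), or -0.05 (SE 0.09) without the 4 libraries that stood apart. Across rats, the levels of Sulf1 and Sulf2 had a Pearson's r of -0.05 over the 10 rats of experiment 1 and 0.16 over the 12 rats of experiment 2.

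Hs6st1, which adds the 6-O-sulfate that the sulfatases remove, had a lower mean with EtOH in both experiments. In experiment 1 its count was 295.7, 274.4, 248.7, 317.6 and 256.8 in the water rats and 243.2, 222.1, 191.4, 194.0 and 253.5 in the EtOH rats. Only EtOH replicate 5, at 253.5, lay above the lowest water rat. The log2 fold change was -0.33 (SE 0.10), from 278.6 ± 28.3 (SD, n = 5) to 220.8 ± 28.1 (SD, n = 5).

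After gavage, Hs6st1 ranged from 289.8 over a median of 348.7 to 455.6 in the water group and from 197.2 over a median of 282.3 to 366.7 in the EtOH group. The groups overlapped, and the mean was 350.9 ± 58.7 (SD, n = 6) against 273 ± 59.2 (SD, n = 6). Its log2 fold change of -0.36 (SE 0.16, 95% interval -0.71 to -0.0075) gave an unadjusted P-value of 0.0459 in edgeR's quasi-likelihood test and an FDR of 0.675, so it did not pass the adjustment over 8655 genes. The change was -0.12 (SE 0.13) without the 4 libraries that stood apart and -0.85 (SE 0.31) within those 4, which held both the highest and the lowest Hs6st1 count of the experiment. Leaving out water gavage replicate 5 gave -0.27 with an unadjusted P-value of 0.128 in the same test. Hs6st2, of the same family, had log2 fold changes of -0.04 (SE 0.11) in experiment 1 and 0.21 (SE 0.15) in experiment 2. Hs6st3 was tested in experiment 2 only, with -0.43 (SE 0.30). The values of Hs6st1 therefore do not stand for the family.

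Ndst1, the N-deacetylase and N-sulfotransferase that starts the modification of the chain, was at 231.9 to 333.3 with water and 290 to 322.6 with EtOH in experiment 1, a log2 fold change of 0.08 (SE 0.09). In experiment 2 it was at 204 to 467.1 after water gavage and 116.6 to 378.7 after EtOH gavage, with a log2 fold change of -0.31 (SE 0.28, FDR 0.675). Of the 2 chain polymerases, Ext1 had log2 fold changes of 0.08 (SE 0.15) in experiment 1 and 0.14 (SE 0.20, FDR 0.735) in experiment 2, and Ext2 had 0.01 (SE 0.12) and -0.20 (SE 0.21, FDR 0.681). The Ext2 count was 196.6 ± 27.9 (SD, n = 5) with water and 196.4 ± 27.7 (SD, n = 5) with EtOH in experiment 1, so the group means were nearly equal. Without the 4 libraries that stood apart, experiment 2 gave -0.29 (SE 0.14) for Ndst1, 0.23 (SE 0.13) for Ext1 and -0.15 (SE 0.12) for Ext2. The counts of Ndst1, Ext1 and Ext2 overlapped between the groups in both experiments.

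Among the core proteins, Gpc1 was the member with the largest spread in experiment 2. In experiment 1 the Gpc1 count was 665.7, 793.3, 673.9, 707.4 and 612.7 with water and 670.9, 569.2, 487.4, 645.5 and 630.9 with EtOH, a log2 fold change of -0.20 (SE 0.09). In experiment 2 it ranged from 152.2 over a median of 450.2 to 932.2 after water gavage and from 68.2 over a median of 254.2 to 750.8 after EtOH gavage. The ranges overlapped over most of their length, and the log2 fold change of -0.60 (SE 0.54, 95% interval -1.76 to 0.56) had an FDR of 0.675. It was -0.59 (SE 0.35) without the 4 libraries that stood apart, -1.04 without EtOH gavage replicate 4 and -0.31 without water gavage replicate 2.

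The within-group standard deviation of Gpc1 in log2 CPM was 0.16 in experiment 1, close to the median of all genes tested, and 1.11 in experiment 2, where 97.2% of the genes tested varied less.

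The syndecans, which carry heparan sulfate on a membrane-spanning core, differed little in experiment 1. Sdc2 was at 374 to 428.6 with water and 401.3 to 442.1 with EtOH, a log2 fold change of 0.07 (SE 0.07), and only 7.03% of the genes tested varied less within groups. Sdc3 had a log2 fold change of -0.01 (SE 0.07) and Sdc4 of 0.06 (SE 0.08). In experiment 2 the log2 fold change was 0.20 (SE 0.21) for Sdc2, -0.21 (SE 0.21) for Sdc3 and -0.14 (SE 0.18) for Sdc4, with FDRs of 0.679, 0.676 and 0.712. Without the 4 libraries that stood apart it was 0.10 (SE 0.11) for Sdc2, -0.22 (SE 0.12) for Sdc3 and -0.08 (SE 0.18) for Sdc4.

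Of the 9 members other than Sulf1, 0 had an FDR under 0.05 in experiment 1, where 0% of all genes tested had one. An unadjusted P-value under 0.05 was found for 2 of the 9 (Hs6st1 and Gpc1), against 5.58% of all genes tested. Both were lower with EtOH, which holds for 2.58% of all genes at this threshold. DESeq2 gave 0 and 2 of the 9 at these thresholds, against 0% and 4.51% of all genes. As Sulf1 was chosen from this contrast, nothing is read from these counts. In experiment 2, 0 of the 10 members had an FDR under 0.05, again with 0% of all genes, and 1 of the 10 (Hs6st1) had an unadjusted P-value under 0.05, against 1.33% of all genes tested and 0.624% lower after EtOH gavage. DESeq2 gave 0 members at either threshold there, against 0% and 2.23% of all genes. The groups overlapped for all 10 members in both experiments, while groups without overlap were found for 0.843% of all genes in experiment 1 (0.404% lower and 0.439% higher with EtOH) and for 0.0116% in experiment 2.

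The median log2 fold change of the 9 members other than Sulf1 was 0.01 in experiment 1, with 5 higher and 4 lower, against 0.00 over all genes tested. In experiment 2, 3 members were higher and 7 lower after EtOH gavage, with a median of -0.17 against 0.00 over all genes. This split did not hold in every fit. When the fit included the percentage of reads outside annotated genes, Sulf2, Ndst1, Ext2, Gpc1, Sdc3 and Sdc4 had positive and Sdc2 a negative log2 fold change, of at most 0.25 in size. Ext1 had the highest value of the members in that fit, 0.38 (SE 0.14, FDR 0.9999 in edgeR's quasi-likelihood test), with an unadjusted P-value of 0.0151.

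**Figure D2:**
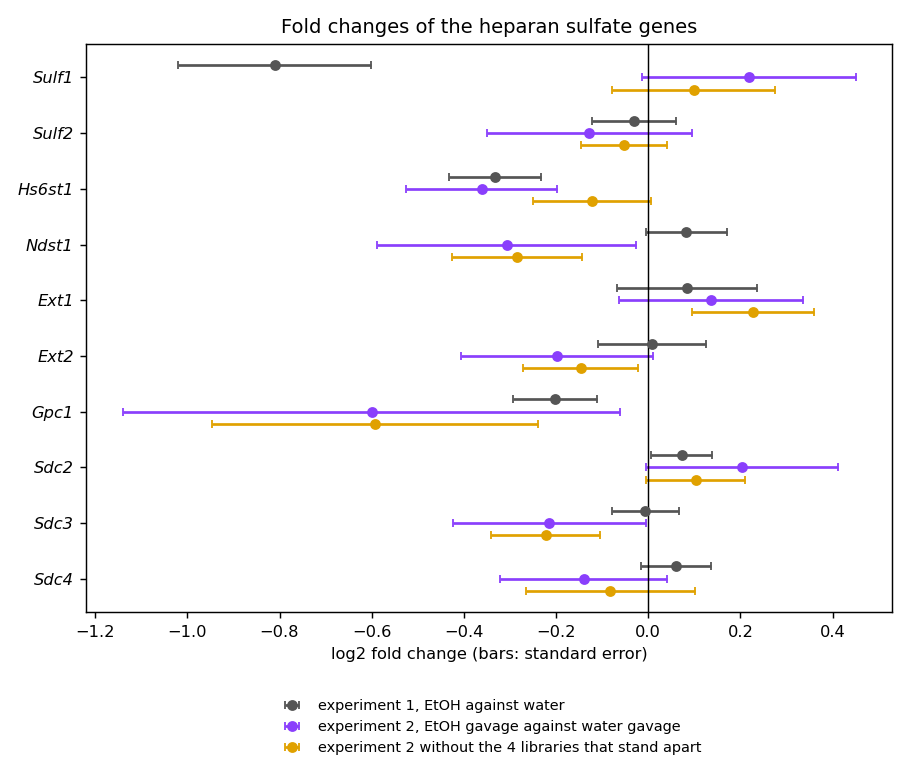
Log2 fold changes (x axis) of the 10 genes with their standard errors as bars, in experiment 1, in experiment 2, and in experiment 2 without the 4 libraries that stand apart. Sulf1 lay at -0.81 in experiment 1 and at 0.22 in experiment 2, while Hs6st1 lay at -0.33 and -0.36.

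The spread of the members among the rats of experiment 2 was shared by most of them. Of the 45 pairs of members, 12 had an r above 0.7 over the 12 rats and 6 an r below -0.7, all 6 of the latter involving Sdc2. No pair passed either value in experiment 1. Ndst1 and Gpc1 had an r of 0.97, Sulf2 and Sdc3 of 0.94, and Ext2 and Sdc2 of -0.95. These values describe 12 libraries that also share the difference in reads outside annotated genes. The median size of r with that percentage was 0.79 over all genes tested, and pairs of other genes were not counted. Nothing particular to the members is read from these pairs.

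In the 4 libraries that stood apart, Sulf2, Ndst1, Ext1, Ext2, Gpc1 and Sdc3 were lower and Sdc2 was higher than in each of the other 8. Gpc1 was at 68.2 to 188.3 against 213.3 to 932.2, Sulf2 at 515.9 to 865.5 against 1017 to 1245, and Sdc2 at 1019 to 1687 against 737 to 977.4. The 3 remaining members, Sulf1, Hs6st1 and Sdc4, overlapped. These libraries were set apart by the expression of all genes tested, the members included, so the differences are a description. The share of all genes tested that separate in this way was not counted, so nothing particular to the members is read from them.

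The level of Gpc1 in log2 CPM correlated with the percentage of reads outside annotated genes over the 12 rats (r -0.90, Spearman's rho -0.94), as did Sdc2 in the other direction (r 0.90, rho 0.78). Sulf1 followed this share less closely, with an r of 0.26 and a rho of 0.43. The median size of r over all genes tested was 0.79, so a close relation was common in this experiment. Within the 8 libraries that did not stand apart, r was -0.71 for Gpc1, 0.29 for Sdc2 and 0.47 for Sulf1. The part of this share in the group differences was not tested, and the fits with and without these libraries are given above.

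**Figure D3:**
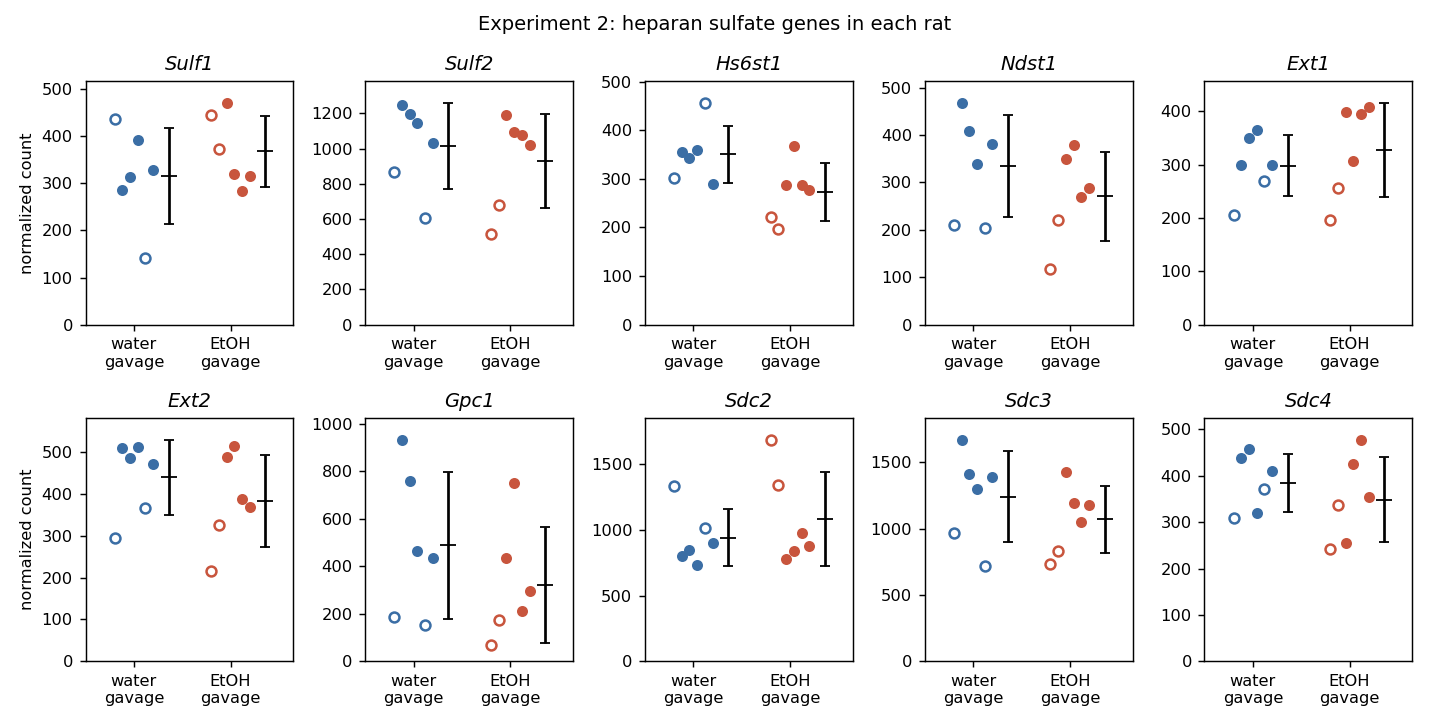
Normalized counts (y axis, from 0) of the 10 genes in each rat of experiment 2, with 6 water gavage rats in blue and 6 EtOH gavage rats in red; open symbols are the 4 libraries that stand apart and black bars show mean ± SD. The open symbols are lowest for Gpc1, at 68.2 to 188.3, and highest for Sdc2, at 1019 to 1687, in both groups.

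**Figure D4:**
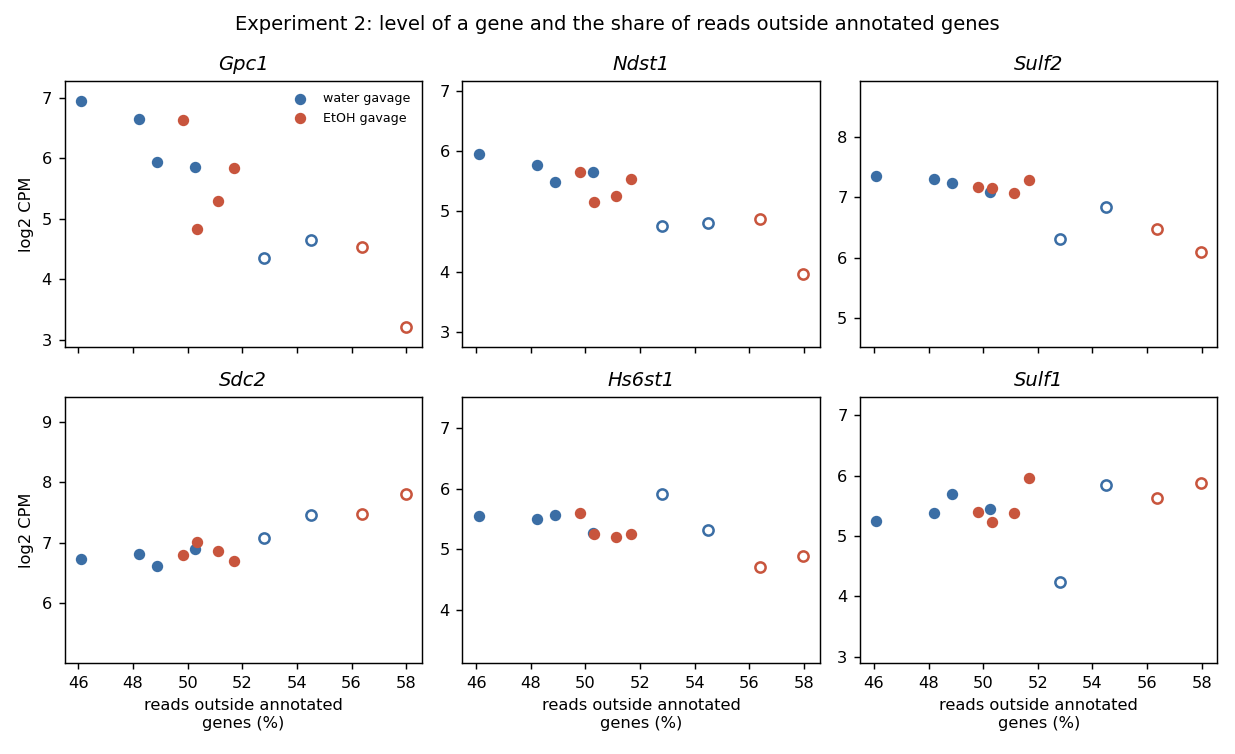
Level of 6 genes in log2 CPM (y axis, the same span in each panel) against the percentage of reads outside annotated genes (x axis) in the 12 rats of experiment 2, with open symbols for the 4 libraries that stand apart. Gpc1 falls along this axis (r -0.90), Sdc2 climbs (r 0.90), and Sulf1 has an r of 0.26.

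Sulf2 and Sdc3 are shown with the 250 bases before their annotated start, because their levels moved together over the rats of experiment 2. The sequences are RefSeq's for the GRCr8 build, which is not the build of the counts, and 5 of the 10 members had an entry. They lie at chr3:175323652-175323901 on the minus strand for Sulf2 and at chr5:148249542-148249791 on the plus strand for Sdc3, and are written 5′ to 3′ on the strand of the gene. Capitals mark GC boxes, searched as GGGCGG and, for the other strand, CCGCCC.
Sulf2: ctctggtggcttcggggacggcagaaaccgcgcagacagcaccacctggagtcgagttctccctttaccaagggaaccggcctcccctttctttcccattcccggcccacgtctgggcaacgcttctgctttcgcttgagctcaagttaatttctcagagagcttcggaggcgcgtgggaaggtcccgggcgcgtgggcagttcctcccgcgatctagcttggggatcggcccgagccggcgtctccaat
Sdc3: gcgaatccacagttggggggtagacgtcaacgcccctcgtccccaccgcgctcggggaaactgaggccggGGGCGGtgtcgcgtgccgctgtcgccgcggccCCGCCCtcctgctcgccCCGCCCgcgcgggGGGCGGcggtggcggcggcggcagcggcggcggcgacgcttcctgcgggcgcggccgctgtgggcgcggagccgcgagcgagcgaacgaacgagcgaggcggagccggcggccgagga
The Sdc3 window held 4 GC boxes and the Sulf2 window 0, and 30.5% of the 33469 windows of this length held at least 1. G and C made up 80% of the Sdc3 window and 62.4% of the Sulf2 window, against a median of 51.2% over all windows. These letters are a description and were not tested against the counts.

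The genes whose level most resembled that of Sulf1 over the 10 rats of experiment 1 were Coil, Celf5, Nr2c2ap, Ap4b1 and Meis3, with r from 0.88 to 0.93. Without the 2 rats farthest from the median Sulf1 level, r was 0.76 to 0.90. These r run over both groups, and Sulf1 was chosen for its difference between them. In experiment 2 the same genes had r with Sulf1 of -0.57, -0.37, 0.13, 0.70 and -0.22. Over the 12 rats of experiment 2 the most alike were Amer1, Sema3c, Gabra3, Nt5dc3 and Bcl6, with r from 0.88 to 0.95. Without the 2 rats farthest from the median Sulf1 level, these 5 fell to r of 0.54 to 0.79. In experiment 1 the r of Sema3c, Gabra3, Nt5dc3 and Bcl6 with Sulf1 was 0.10, 0.29, -0.15 and -0.25, and Amer1 was not tested. The 5 most alike genes of each experiment therefore had no gene in common, and these values are a description of 10 and 12 libraries.

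The wider pathway was followed with 69 further genes in 6 lists, of which 59 were listed in the files, and 39 were tested in experiment 1 and 43 in experiment 2. In experiment 1, 0 of the 39 had an FDR under 0.05 and 3 had an unadjusted P-value under 0.05 in edgeR's quasi-likelihood test, 2 higher and 1 lower, where 5.58% of all genes tested had one (3% higher and 2.58% lower). Nothing is read from this count. In experiment 2, 0 of the 43 passed either threshold, against 1.33% of all genes at the unadjusted one.

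The chain start list holds the enzymes of the linker that joins the chain to the core protein, together with the Ext-like genes. Of its 8 tested genes, 3 were higher and 5 lower in experiment 1, with a median log2 fold change of -0.02, from -0.26 (SE 0.16) for B3galt6 to 0.11 (SE 0.09) for Xylt2. In experiment 2 the median was -0.30, with 2 higher and 6 lower, from -0.55 (SE 0.40) for B3gat3 to 0.40 (SE 0.24) for Extl2.

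The chain modification list had 5 tested genes in experiment 1 and 7 in experiment 2. Hs3st2, a 3-O-sulfotransferase, had the highest log2 fold change in both, 0.60 (SE 0.29) and 0.34 (SE 0.61), and Hs3st1, of the same family, the lowest, -0.20 (SE 0.21) and -0.63 (SE 0.45). The median log2 fold change was 0.07 and 0.11. None of these passed an unadjusted P-value of 0.05, and the Hs3st2 count of 43.3 ± 22.8 with water and 68.3 ± 19.7 with EtOH (SD, n = 5 each) overlapped between the groups.

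Of the 5 tested genes for other core proteins, Gpc5, a glypican, and Col18a1, the collagen whose fragment is endostatin, were the 2 with an unadjusted P-value under 0.05 in experiment 1. Gpc5 was at 304.9 to 388 with water and 360.1 to 457.7 with EtOH, a log2 fold change of 0.23 (SE 0.09). Col18a1 was at 98.4 to 230.6 with water and 105.1 to 131.4 with EtOH, a log2 fold change of -0.45 (SE 0.18), so the EtOH rats lay inside the range of the water rats. In experiment 2 the log2 fold change was 0.17 (SE 0.14) for Gpc5 and -0.35 (SE 0.52) for Col18a1. Gpc3 had the highest log2 fold change of this list in experiment 1, 0.47 (SE 0.24). The median of the list was 0.19 in experiment 1 and -0.07 in experiment 2.

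Among the 15 tested ligands and receptors that bind heparan sulfate, 11 were higher and 4 lower with EtOH in experiment 1, with a median log2 fold change of 0.06. The single gene with an unadjusted P-value under 0.05 was Fgf13, at 442.9 to 642.3 with water and 581.2 to 669.2 with EtOH (log2 fold change 0.22, SE 0.09). Unlike secreted FGFs, the Fgf13 protein stays in the cell and is known as a regulator of sodium channels. In experiment 2, 8 were higher and 7 lower, from -0.47 (SE 0.26) for Vegfa to 0.30 (SE 0.30) for Slit2, with a median of 0.00.

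The genes that supply sulfate or activate sulfatases lay between -0.10 (SE 0.07) for Papss1 and 0.16 (SE 0.19) for Sumf2 in experiment 1, with 5 tested and a median of -0.06. In experiment 2, 6 were tested, from -0.38 (SE 0.38) for Slc35b2 to 0.51 (SE 0.34) for Impad1, with a median of 0.00. Chain breakdown was the list least covered, as 6 of its 10 genes were listed. Only Idua, a lysosomal enzyme, was tested in experiment 1, with a log2 fold change of 0.03 (SE 0.12). In experiment 2, Idua had -0.21 (SE 0.19) and Gusb -0.17 (SE 0.18).

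**Figure D5:**
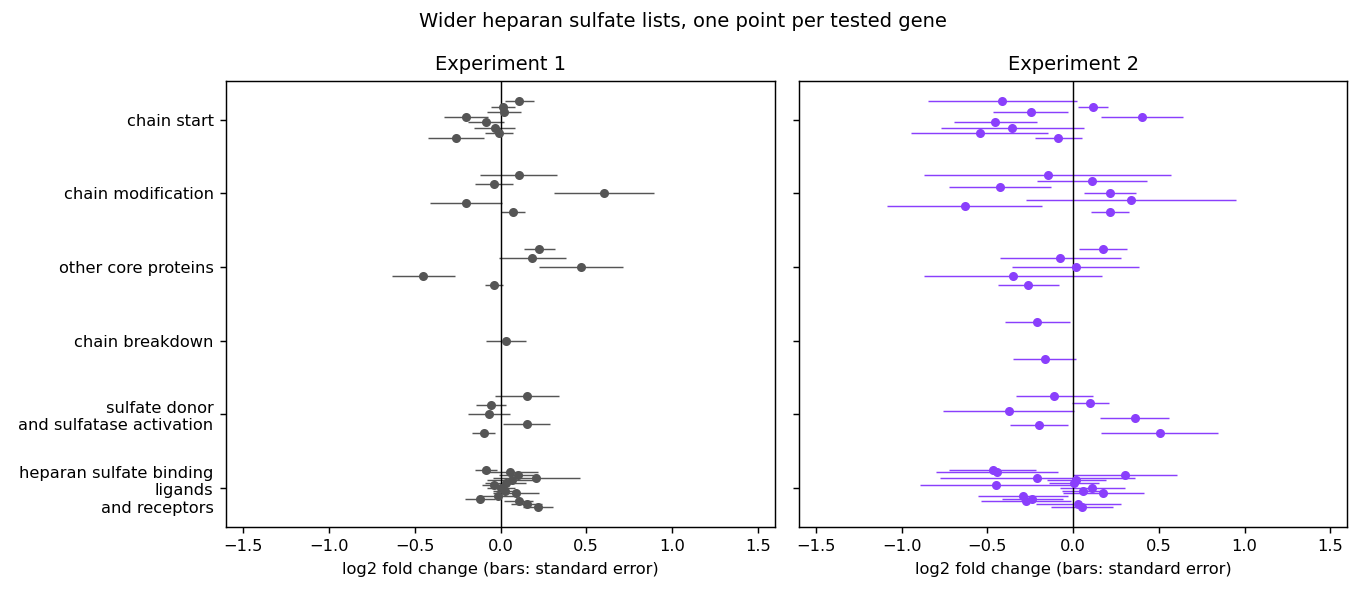
Log2 fold changes (x axis) with standard errors as bars for each tested gene of the 6 wider lists (rows), with experiment 1 on the left and experiment 2 on the right. The points of experiment 1 lie between -0.45 (Col18a1) and 0.60 (Hs3st2) and those of experiment 2 between -0.63 (Hs3st1) and 0.51 (Impad1).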

How the data were processed

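Per the paper's methods, the authors prepared polyA+ libraries without strand information in experiment 1 and with it in experiment 2, so in experiment 1 overlapping and antisense genes cannot be told apart. They aligned the reads with TopHat2 (2.0.13 in the submitters' processing notes) to Rnor_6.0, and deposited the raw htseq-count read counts per gene of each rat. The htseq-count options and annotation release are not given in the sources used here, and the deposited tables list reads aligned to several places on a summary line of their own. The 5 summary lines were left out of library sizes. Values were used as deposited, and no 2 rats of a group agreed within sampling noise (chi-square per degree of freedom at least 2.99).

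The 2 experiments had separate fits, made with edgeR 4.0.16 under R 4.3.3, using TMM factors, glmQLFit in legacy mode and Benjamini-Hochberg adjustment (FDR, threshold 0.05) over the 8655 genes in the upper 50% of base means, which follows the 50% filter of the paper. The SE is the log2 fold change over the root of F, and 95% intervals use the degrees of freedom of the fit. Log2 CPM used a prior count of 2. The fits were also run on simulated counts. These were drawn independently for each gene, without the spread that genes share in experiment 2, so they do not show how the test behaves there. P-values rest on the spread among rats, and groups and replicate numbers came from the sample titles. DESeq2 1.42.0, other filters and scalings, covariates, a replicate block and leaving out each rat were alternatives, and those on the first principal component and the 4 libraries that stand apart were added after seeing the data.

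The members and gene lists were chosen with earlier results of these data known. Named were all 10 members, list genes with an unadjusted P-value under 0.05 or the most extreme fold change of a list, and the 5 genes most correlated with Sulf1 in each experiment. Hs6st2 and Hs6st3 were named beside Hs6st1 as genes of its family. Of the marker lists for astrocytes, oligodendrocytes, microglia, pericytes and fibroblasts, and choroid plexus, 1 of 5, 0 of 5, 0 of 5, 1 of 3 and 0 of 0 tested genes had an unadjusted P-value under 0.05 in edgeR's test in experiment 1, and 0 in experiment 2. Xylt1, Glce, Hs3st4, Gpc6, Hspg2, Ids, Sgsh, Naglu, Hgsnat and Slc35b3 were not analysed here. Transcript lengths were not used, so levels are not compared between genes.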

Additional observations from a re-analysis of the deposited data

How the results depend on the processing

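No member and no gene had an FDR under 0.05 in either experiment under any setting run, in edgeR or DESeq2. For Sulf1 the log2 fold change in experiment 1 lay between -0.83 and -0.62 under the other settings and between -0.95 and -0.70 with each rat left out; in experiment 2 the latter range was 0.07 to 0.33. The count of genes with an unadjusted P-value under 0.05 in experiment 1 was 483, and 820 without a filter, 77 with all 4 groups in one fit and 380 to 743 with rats left out. In experiment 2 it was 115, and 286 without a filter, 178 with filterByExpr, 315 with DESeq2, 414 with a replicate block, 640 with all 4 groups in one fit, 916 without and 899 within the 4 libraries that stand apart, 2444 with these libraries as a batch term and 28 to 776 with rats left out. Of the 9 members other than Sulf1, 1 instead of 2 had such a P-value in experiment 1 with all 4 groups in one fit or with the first principal component as a covariate, and 1 to 2 with rats left out (1 without water replicates 2, 3 or 4 or EtOH replicates 2 or 3). In experiment 2 the count of 1 became 0 with DESeq2 size factors, no filter, at least 10 counts in every sample, filterByExpr, DESeq2 or without the 4 libraries, and was 0 to 1 with rats left out, being 1 only without water gavage replicates 1 or 6 or EtOH gavage replicate 4. It stayed 1 with the percentage of reads outside annotated genes or the first principal component in the model, but with another gene: the unadjusted P-value in edgeR's test was 0.0923 and 0.0593 for Hs6st1, and 0.0151 and 0.0192 for Ext1, whose log2 fold change was 0.38 and 0.33.

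In experiment 2, with the percentage of reads outside annotated genes in the model, the log2 fold change turned to 0.17 for Sulf2, 0.10 for Ndst1, 0.079 for Ext2, 0.25 for Gpc1, -0.11 for Sdc2, 0.080 for Sdc3 and 0.028 for Sdc4. With the first principal component as a covariate it turned to 0.11 for Sulf2, 0.041 for Ndst1, 0.036 for Ext2, 0.064 for Gpc1, -0.072 for Sdc2 and 0.032 for Sdc3. Within the 4 libraries that stand apart, Ext1 turned to -0.062. The cause of these changes was not tested. The replicate block changed no other call, with log2 fold changes of -0.80 in experiment 1 and 0.27 in experiment 2 for Sulf1. Same-numbered rats deviated together (r over 0.1) in 1 of 5 pairs in experiment 1 and 4 of 6 in experiment 2, where r ran from -0.76 to 0.84. In experiment 2 the first principal component held 74% of the variance, so these r cannot show whether the numbers pair the rats. The main fits treat the rats as unpaired. At these sample sizes an FDR over the threshold does not show that a member is unaffected, as the 95% interval of Gpc1 in experiment 2 spans -1.76 to 0.56.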
